A study of Mus musculus with 6 samples.

Results

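The testis-specific serine kinases, or TSSK family, are protein kinases made by haploid male germ cells. The 6 mouse genes Tssk1 to Tssk6 were found by their exact symbol in the platform annotation, which gave 9 probe sets, groups of short probes that each read 1 transcript region. These 6 genes stand among 18193 genes that the annotation names through a probe set of 1 gene. Whole testes were compared between wild-type mice (WT) and Alkbh1-/- knockout mice (KO), all 12 weeks old. The source labels give a C57/BL6 background for both groups, while the genotype field spells the strain C53/BL6. Each group held 3 mice, each mouse gave 1 Affymetrix array, and the deposited values are normalized log2 expression. The sources used here do not say which part of Alkbh1 was deleted, or whether the WT animals were littermates. Testis was the only tissue measured, so the restriction of the family to testis was not examined.

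Kinases of this family belong to the calcium/calmodulin-dependent kinase group and lie near the AMP-activated kinases in the kinase tree. Their transcripts appear after meiosis, in spermatids, the cells that condense their nucleus, form an acrosome and build a tail. TSSK1 and TSSK2 bind and phosphorylate TSKS, a scaffold protein of spermatids, TSSK4 phosphorylates the tail protein ODF2, and TSSK6 is needed for the packing of sperm DNA. Male mice that lack Tssk6, or Tssk1 and Tssk2 together, are infertile.

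Tssk1 and Tssk2 are direct neighbours among the protein-coding genes of chromosome 16, between Dgcr2 and Ess2. Tssk3 lies on chromosome 4, Tssk4 on chromosome 14, Tssk5 on chromosome 15 and Tssk6 on chromosome 8. RefSeq promoter windows (build GRCm38.p6, 250 bases before to 50 after the start of transcription) were matched for 5 of the 6 genes, all but Tssk5. The windows of the tandem pair are shown because they hold the longest run shared by any 2 of the 5 windows. Capitals mark every run of at least 8 bases that both windows hold on the same strand. The Tssk1 window is chr16:17893953-17894252 and the Tssk2 window is chr16:17898387-17898686, both on the plus strand and printed 5′ to 3′.
Tssk1: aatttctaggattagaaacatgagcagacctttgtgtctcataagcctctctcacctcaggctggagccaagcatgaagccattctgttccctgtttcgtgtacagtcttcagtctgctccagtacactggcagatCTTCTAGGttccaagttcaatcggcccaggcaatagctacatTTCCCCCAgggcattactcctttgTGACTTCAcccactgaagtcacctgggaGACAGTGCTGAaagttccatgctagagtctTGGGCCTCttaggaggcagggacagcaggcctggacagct
Tssk2: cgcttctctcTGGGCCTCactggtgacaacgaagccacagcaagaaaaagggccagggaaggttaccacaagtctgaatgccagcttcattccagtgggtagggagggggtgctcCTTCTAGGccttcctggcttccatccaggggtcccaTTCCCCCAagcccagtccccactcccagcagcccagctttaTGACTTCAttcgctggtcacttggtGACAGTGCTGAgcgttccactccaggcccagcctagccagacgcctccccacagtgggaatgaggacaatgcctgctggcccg

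Both windows carried 4 shared runs in the same order. Positions are given relative to the start of transcription. CTTCTAGG began at −114 in Tssk1 and at −135 in Tssk2, and 1.15% of all 32851 windows in the table hold it on either strand. TTCCCCCA, at −72 and −99, occurs in 2.09% of windows. TGACTTCA, at −48 and −58, occurs in 1.52%. GACAGTGCTGA, the 11-base run at −20 and −33, occurs in 6 of the 32851 windows, which is 0.0183%. The fifth run, TGGGCCTC, lay in different places, at 10 in Tssk1 and at −240 in Tssk2. Other pairs of windows also shared long runs. Tssk1 and Tssk4 shared 10 bases found in 0.137% of windows, and Tssk3 and Tssk4 shared 10 bases found in 0.116%. Both windows of a pair are themselves counted in these shares. The runs were picked because both windows hold them, so the shares do not test whether the tandem pair is unusual. A shared run is a description of the letters and not evidence of a binding site.

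Promoter elements known from textbooks were searched on both strands of the same windows. TGACGTCA, the full cAMP response element read by CREM in spermatids, was in 0 of the 5 windows and in 1.79% of all windows. Its half-site TGACG, which also occurs inside the full element, was in 1 of 5, that of Tssk6, and in 20.8% of all. TATAAA was in 0 of 5 (13.6% of all), CCAAT in 2 of 5 (Tssk3 and Tssk4, 37.4% of all) and GGGCGG in 1 of 5 (Tssk6, 35.7% of all). The windows of Tssk4, which has the probe set with the largest difference between genotypes, and of Tssk6, which has the one with the smallest, are shown with these elements in capitals. The Tssk4 window is chr14:55649934-55650233 and the Tssk6 window is chr8:69901934-69902233, both on the plus strand and printed 5′ to 3′.
Tssk4: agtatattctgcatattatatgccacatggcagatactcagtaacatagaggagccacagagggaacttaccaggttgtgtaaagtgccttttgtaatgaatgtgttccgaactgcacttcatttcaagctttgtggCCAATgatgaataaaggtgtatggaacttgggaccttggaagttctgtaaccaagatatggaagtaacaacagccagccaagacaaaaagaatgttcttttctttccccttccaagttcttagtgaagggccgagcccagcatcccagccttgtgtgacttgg
Tssk6: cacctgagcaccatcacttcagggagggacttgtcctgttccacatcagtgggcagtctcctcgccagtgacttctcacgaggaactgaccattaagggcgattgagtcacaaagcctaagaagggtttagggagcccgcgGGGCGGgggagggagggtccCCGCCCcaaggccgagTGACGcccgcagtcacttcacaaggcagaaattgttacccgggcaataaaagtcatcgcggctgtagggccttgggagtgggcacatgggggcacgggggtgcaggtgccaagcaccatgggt

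In Tssk4 the capitals mark CCAAT at −113. In Tssk6 they mark GGGCGG at −109, the same element on the opposite strand at −89, and TGACG at −73. A window without a motif says only that these letters are not in it.

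Across the 6 genes, no probe set passed the test between KO and WT testes. Of the 9 probe sets 7 passed the level filter (the upper 60% by mean log2 over the 6 arrays), at least 1 for every gene, and 0 of these 7 passed (limma, Benjamini-Hochberg adjusted p under 0.05 over 27022 probe sets, of which 0.0407% were called). At an unadjusted p under 0.05 there were 3 of 7, all higher in KO, and 3.32% of all tested probe sets were higher at that level. All 3 KO values lay above all 3 WT values in 2 of the 7, against 7.12% of all tested probe sets. Both of these belong to Tssk4 and were also among the 3 at that p. With only the brightest probe set of each gene, 2 of 6 were under that p, against 766 of 13897 genes in either direction. KO lay above WT without overlap in 1 of 6, against 1105 of 13897 genes. Under quantile normalization the limma unadjusted p was 0.079 for 1432101_a_at (Tssk4) and 0.058 for 1432045_at (Tssk5). With 1 probe set a gene, the one with the highest mean, the median KO minus WT difference of the family was 0.063 log2, against 0.012 over 13897 genes. All 6 differences were above 0, as were 55.9% of all genes, but that of Tssk6 (0.0011) turned negative under quantile normalization and under centring on array medians. WT replicates 1 and 2 were the least alike of any 2 arrays (Pearson r = 0.989 across the 27022 probe sets, which are not independent replicates). WT replicate 2 was close to WT replicate 3 (r = 0.996). The mean deviation of the 6 genes was lowest in WT replicates 1 and 2 (−0.096 and −0.046 log2). Leaving both of these arrays out therefore lowers the family mean of KO minus WT by construction, though not the difference of every gene. With both out, Tssk5 rose from 0.27 to 0.34 and Tssk6 from 0.0011 to 0.027. With both left out, which leaves 1 WT array, 3 of 6 were above 0 and the median was 0.0099. Without WT replicate 3 alone the median was 0.10, with 5 of 6 above 0. Under quantile normalization of the arrays the family median was 0.022, with 0.025 for Tssk1, 0.012 for Tssk2 and 0.020 for Tssk3.

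The probe set of Alkbh1 with the higher mean fell from 8.60 ± 0.15 log2 in WT to 5.42 ± 0.30 in KO (mean ± SD, n = 3 each; limma adjusted p = 0.000582). Over the 6 arrays the median log2 value ran from 6.62 to 6.64. The 99th percentile of each array was 12.96 in WT replicate 1 and 13.08 to 13.10 in the others. WT replicate 1 thus read lower at the bright end of the scale, where most TSSK probe sets lie. WT replicate 2, where the bright members had their lowest mean deviation (−0.079 log2), had a 99th percentile of 13.10. The part of the bright end in the TSSK differences was not tested. In whole testis, fewer cells of a type and less RNA per cell cannot be told apart.

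**Figure D1:**
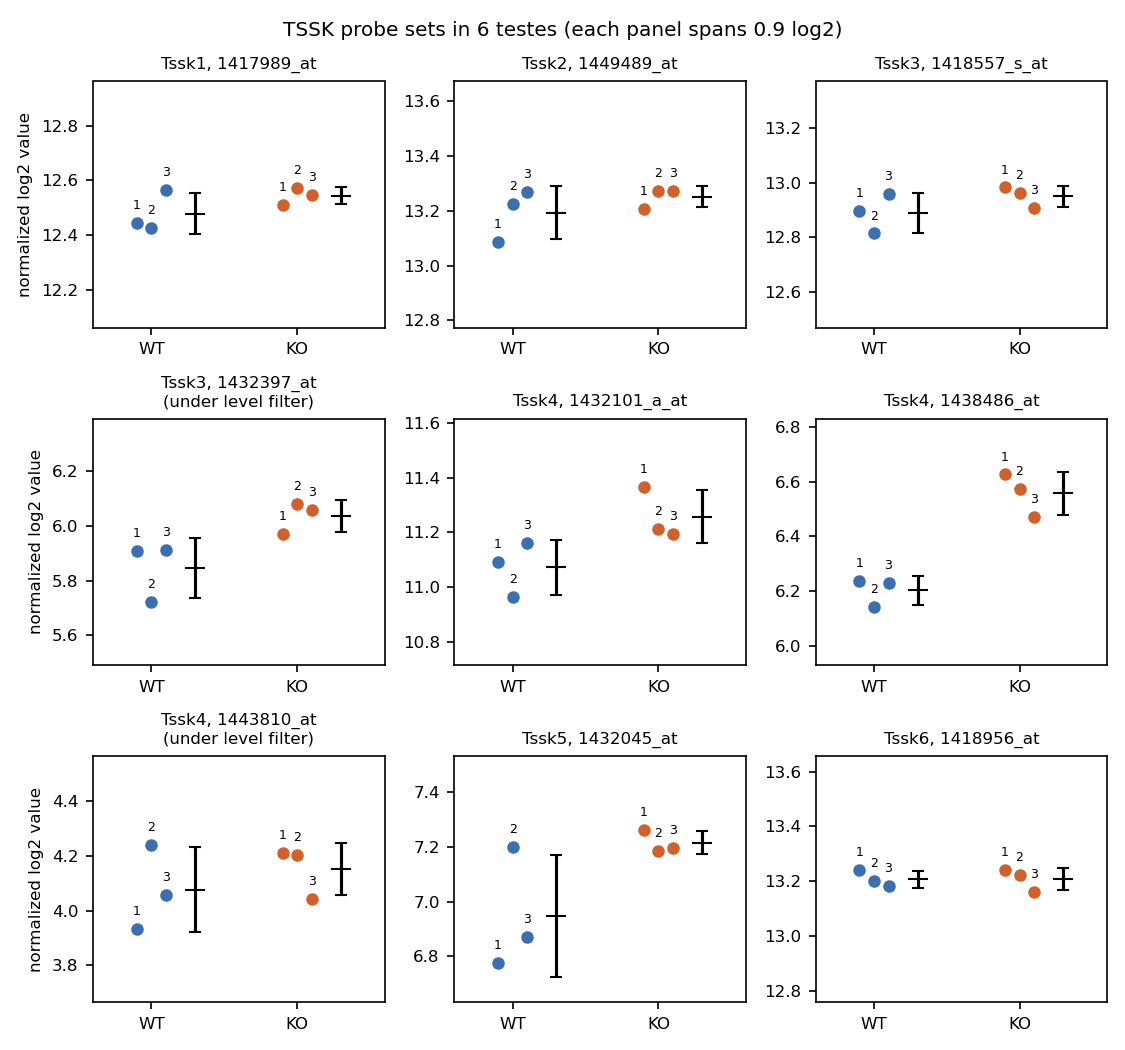
Normalized log2 values of the 9 TSSK probe sets in 3 WT (blue) and 3 KO (orange) testes, with replicate numbers, and the mean ± SD of each group as a black bar. Each vertical axis spans 0.9 log2 around its own mean, and the groups are apart without overlap at 1432397_at, 1432101_a_at and 1438486_at.

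Tssk4 held the probe set with the largest difference in the family. It encodes a kinase that acts on the outer dense fibre protein ODF2 of the sperm tail. Its brightest probe set, 1432101_a_at, whose suffix marks probes shared by several transcripts of 1 gene, read 11.09, 10.96 and 11.16 log2 in WT replicates 1 to 3 and 11.37, 11.21 and 11.19 in KO replicates 1 to 3. All KO values were above all WT values, although the lowest KO value and the highest WT value were only narrowly apart. The difference was 0.19 ± 0.07 (SE), or 1.14-fold, with a 95% interval from 0.014 to 0.36 (limma adjusted p = 0.936). It was 0.096 without WT replicates 1 and 2.

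The second Tssk4 probe set, 1438486_at, read 6.24, 6.14 and 6.23 in WT and 6.63, 6.57 and 6.47 in KO. The groups were clearly apart here, with SDs of 0.053 and 0.080. The difference of 0.35 ± 0.08, or 1.28-fold, had the smallest p of the family (unadjusted p = 0.00177 by limma) and did not pass over all probe sets (limma adjusted p = 0.637). With a mean of 6.38 it lay close to the level filter, whose lowest kept mean was 6.02.

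The third Tssk4 probe set, 1443810_at, lay under the filter, at 3.93, 4.24 and 4.06 in WT and 4.21, 4.20 and 4.04 in KO. Its groups overlapped. In a fit with no level filter its difference was 0.075 ± 0.097 (limma adjusted p = 0.998). The differences of the 3 probe sets of the gene ran from 0.075 to 0.35, and none passed. That of 1443810_at was smaller than its SE, so its sign says little about the gene.

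Tssk5, a less studied member, was read by 1 probe set, 1432045_at. It stood at 6.77, 7.20 and 6.87 in WT and at 7.26, 7.19 and 7.20 in KO. WT replicate 2 lay among the KO values and the other WT values lay below all of them. The WT SD of 0.22 was the largest in the family, against 0.041 in KO. The difference was 0.27 ± 0.11, with an interval from 0.0054 to 0.53 (limma adjusted p = 0.967). It was 0.39 without WT replicate 2 and 0.18 without WT replicate 1.

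Tssk1 and Tssk2, the tandem pair, were read by 1 probe set each. Tssk1 (1417989_at) stood at 12.45, 12.43 and 12.56 in WT and 12.51, 12.57 and 12.55 in KO. WT replicate 3 lay within the KO range, while WT replicates 1 and 2 lay below it. The difference was 0.065 ± 0.053, with an interval from −0.058 to 0.19 (limma adjusted p = 0.993). It was 0.039 without WT replicate 2 and 0.11 without WT replicate 3.

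Tssk2 (1449489_at) read 13.09, 13.22 and 13.27 in WT and 13.21, 13.27 and 13.27 in KO. Only WT replicate 1 lay below the KO values. The difference was 0.057 ± 0.058, with an interval from −0.076 to 0.19 (limma adjusted p = 0.993). It was 0.0038 without WT replicate 1 alone and 0.096 without WT replicate 3. Without WT replicates 1 and 2 the differences of Tssk1 and Tssk2 were −0.020 and −0.019.

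Tssk3, whose product is activated by the kinase PDPK1, had 2 probe sets. The brighter, 1418557_s_at, carries a suffix for probes that can match transcripts of more than 1 gene. It read 12.90, 12.81 and 12.96 in WT and 12.98, 12.96 and 12.91 in KO. The groups overlapped, and the difference was 0.061 ± 0.052 (limma adjusted p = 0.993). It was 0.023 without WT replicate 2, 0.095 without WT replicate 3 and −0.0070 without WT replicates 1 and 2.

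The other Tssk3 probe set, 1432397_at, lay under the level filter, at 5.91, 5.72 and 5.91 in WT and 5.97, 6.08 and 6.06 in KO. All KO values were above all WT values. Its difference was 0.19 ± 0.09 in a fit with no level filter (limma adjusted p = 0.998), so that both probe sets were higher in KO by differing amounts.

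Tssk6, needed for the packing of sperm DNA, had the difference nearest to 0. Its probe set 1418956_at read 13.24, 13.20 and 13.18 in WT and 13.24, 13.22 and 13.16 in KO. The groups had almost the same mean, 13.21 ± 0.03 and 13.21 ± 0.04 (mean ± SD, n = 3 each). The difference was 0.0011 ± 0.044, with an interval from −0.10 to 0.10 (limma adjusted p = 0.999).

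Brightness depends on the probes as well as on the transcript, and the probe sets of a single gene show it, with means of 12.92 and 5.94 for Tssk3 and of 11.16, 6.38 and 4.11 for Tssk4. The paralogs were therefore not placed in an order of level. The KO mean was above the WT mean at all 7 tested probe sets, as at 56.4% of all tested probe sets, by only 0.0011 at Tssk6. The values lay apart, KO above WT, in 2 of the 7, both of Tssk4, against 7.12% of all tested probe sets. Both probe sets under the filter were also higher in KO, with the groups apart at 1432397_at of Tssk3.

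**Figure D2:**
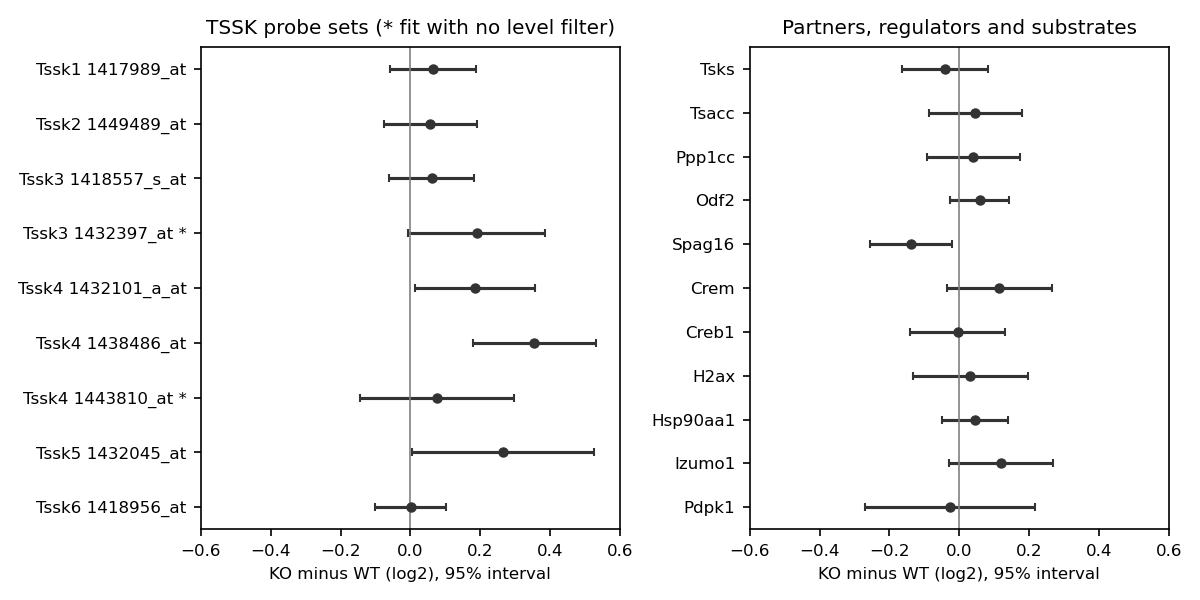
KO minus WT differences (log2) with 95% intervals from limma for the 9 TSSK probe sets (left, an asterisk marks a fit with no level filter) and for 11 genes of partners, regulators and substrates (right). The intervals of 1432101_a_at, 1438486_at and 1432045_at lie above 0 before adjustment for the number of probe sets, and that of Spag16 lies below 0.

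The mean of the bright TSSK probe sets and the mean of spermatid markers were both lowest in WT replicates 1 and 2. Every array was set against the mean of all 6. The 5 bright members (Tssk1, Tssk2, Tssk3, Tssk4 and Tssk6) had mean deviations of −0.053, −0.079 and 0.022 log2 in WT replicates 1 to 3 and of 0.056, 0.043 and 0.011 in KO replicates 1 to 3. A list of 13 spermatid markers, among them the protamine genes Prm1 and Prm2 and the tail gene Odf1, had deviations of −0.043, −0.041 and 0.016 in WT and of 0.037, 0.014 and 0.016 in KO. In both, WT replicate 3 lay within the KO range. The likeness was not particular to spermatid markers. The list of TSSK partners read below was also lowest in WT replicates 1 and 2 (−0.043 and −0.018). The spermatocyte and germ cell kinase lists were lowest in WT replicate 1 (−0.090 and −0.072), where the spermatogonial, Sertoli and Leydig lists were highest. Not every member had this pattern. Tssk6 stood at 0.032 in WT replicate 1 and was lowest in KO replicate 3 (−0.045). Tssk2 stood at 0.0023 in WT replicate 2, above KO replicate 1 (−0.015). Tssk5, not a bright member, stood at 0.12 in WT replicate 2. All 13 spermatid markers were higher in KO, by 0.0052 to 0.11 with a median of 0.049, and 0 passed the test (limma, 1 at an unadjusted p under 0.05, that of Acr, the gene of the acrosomal protease acrosin). Over all genes 55.9% were higher in KO, with a median of 0.012, and 766 of 13897 were at that p in either direction. Under quantile normalization the median of the spermatid markers was 0.0012, with 7 of 13 above 0. It was 0.032 without KO replicate 1 and 0.010, with 8 of 13 above 0, without WT replicates 1 and 2. In an alternative added with the data in view (spermatid scaling), each array's mean over these markers was subtracted from all its values. This moves every probe set of an array by the same amount. It cannot separate a spermatid signal from a shift of the whole array, so the part of that signal in the TSSK differences was not tested. After this scaling the median difference over all tested probe sets was −0.032. The differences then were 0.020 for Tssk1, 0.012 for Tssk2, 0.016 for Tssk3, 0.14 and 0.31 for Tssk4, 0.22 for Tssk5 and −0.044 for Tssk6, and 0 of 7 passed (limma adjusted p from 0.714).

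**Figure D3:**
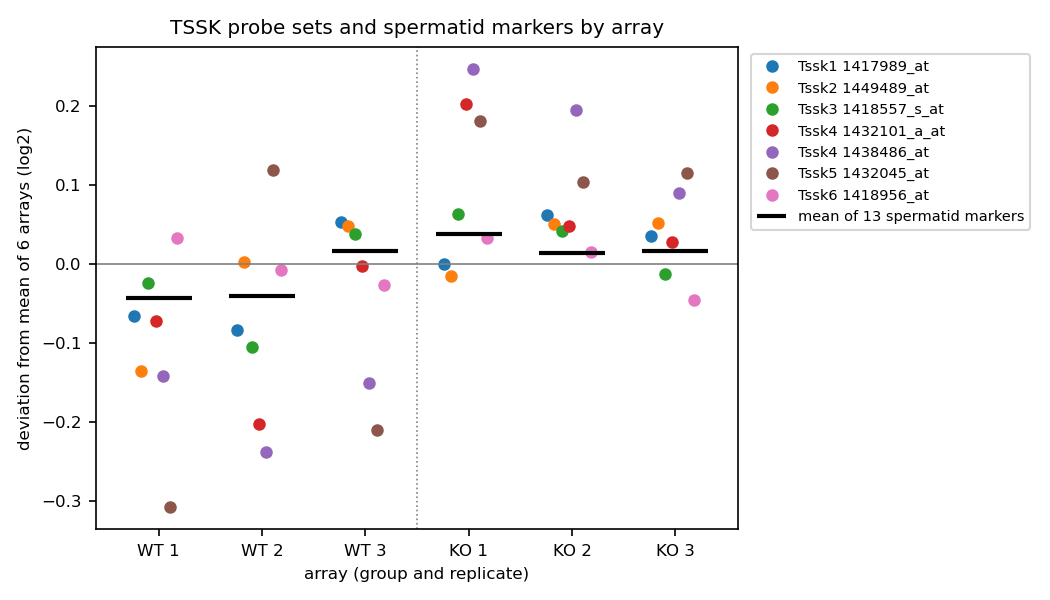
Deviation of each tested TSSK probe set from its own mean over 6 arrays (log2, coloured points) and the mean deviation of 13 spermatid markers (black bars), by array. WT replicates 1 and 2 have the lowest marker means, and the Tssk4 and Tssk5 points spread more widely than those of Tssk6.

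Markers of other testis cells did not pass the test. Their counts stand against 55.9% of all genes higher in KO, with a median of 0.012. Of 9 spermatocyte markers 7 were higher and 1 lower in KO, with a median of 0.037, and the differences farthest from 0 were those of Hspa2 (0.076) and Ybx2 (0.061). The mean deviation of this list ran from −0.090 to 0.038 over the WT arrays and from 0.0056 to 0.034 over the KO arrays. Of 7 spermatogonial markers 5 were lower, with a median of −0.023, led by Gfra1 (−0.17) and Stra8 (−0.097), and the list mean ran from −0.049 to 0.11 in WT and from −0.060 to 0.0014 in KO. Of 9 Sertoli cell markers 6 were lower and 3 higher (median −0.034), led by Rhox5 (−0.12) and Fshr (−0.092). The list mean ran from 0.013 to 0.033 in WT and from −0.041 to −0.0022 in KO. These list means did not overlap, but at each of the 9 markers the WT and KO values did. How often a list mean is apart in this way was not tested. Of 5 measured Leydig cell markers 3 were lower (median −0.062), led by Star (−0.33) and Hsd3b1 (−0.20), and the list mean ran from −0.21 to 0.21 in WT and from −0.16 to 0.13 in KO. Of these 30 genes 0 passed (limma, 0 at an unadjusted p under 0.05). Their part in the TSSK differences was not tested.

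Genes whose products bind, regulate or receive phosphate from TSSK kinases did not pass either. Of 12 listed genes 11 were measured, 7 were higher and 4 lower in KO, with a median of 0.041, and 0 passed (limma, 1 at an unadjusted p under 0.05). Over all genes 55.9% were higher in KO, with a median of 0.012, and 766 of 13897 were at that p. The median of the listed genes was 0.0027 without WT replicate 1, with 6 higher and 5 lower. It was 0.022 without WT replicate 2, 0.014 without both and 0.0081 under quantile normalization. Tsks, the substrate of TSSK1 and TSSK2, read 11.64, 11.62 and 11.64 log2 in WT and 11.52, 11.61 and 11.65 in KO, a difference of −0.041 ± 0.053 (limma adjusted p = 0.993). Its KO values spread on both sides of the WT values. Tsacc, a co-chaperone that hands TSSK6 to HSP90, differed by 0.046 ± 0.057 and the HSP90 gene Hsp90aa1 by 0.044 ± 0.041. Ppp1cc, the phosphatase found with TSSK1 and TSKS in spermatids, differed by 0.041 ± 0.058.

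Among the substrates, Odf2 read 13.90, 13.90 and 13.92 in WT and 13.96, 13.97 and 13.96 in KO. The groups did not overlap and the spread was small, and the difference was 0.058 ± 0.036 (limma adjusted p = 0.993). Its 5 tested probe sets were all higher in KO, by 0.042 to 0.15, with 1 at an unadjusted p under 0.05. Spag16, an axonemal substrate of TSSK2, read 11.66, 11.70 and 11.74 in WT and 11.59, 11.58 and 11.51 in KO, all KO values being lower. Its difference was −0.14 ± 0.05 (limma adjusted p = 0.918), and its other tested probe set stood at −0.020. H2ax, the histone variant whose phosphorylation in spermatids needs TSSK6, differed by 0.032 ± 0.071.

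The transcription factor Crem, the master regulator of spermatid genes, differed by 0.12 ± 0.06 at its brightest probe set, and its 3 probe sets ran from −0.041 to 0.12. Creb1, a related factor, stood at −0.0045 ± 0.059. Izumo1, the sperm-egg fusion protein whose relocation needs TSSK6, was higher without overlap, at 0.12 ± 0.06 (limma adjusted p = 0.993). Pdpk1, the kinase that activates TSSK3, differed by −0.027 ± 0.11.

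Other kinases did not pass either. Of 12 measured kinases with a role in male germ cells 8 were higher and 4 lower (median 0.046), and 0 passed (limma, 2 at an unadjusted p under 0.05). Over all genes 55.9% were higher in KO, with a median of 0.012, and 766 of 13897 were at that p. Cdk16, a cyclin-dependent kinase needed for spermiogenesis, stood at −0.20 ± 0.05 without overlap (limma adjusted p = 0.835) and was lower at all 3 of its tested probe sets. Tesk2, a testis kinase that acts on cofilin, stood at 0.16 ± 0.07, Fer at 0.11 ± 0.06 and Stk31 at −0.096 ± 0.060. Without WT replicate 1 the median of this list was −0.031, with 4 of 12 above 0, and it was 0.070 without WT replicate 2 or without WT replicate 3. It was 0.0018, with 6 of 12 above 0, without WT replicates 1 and 2, and 0.021 under quantile normalization. Of 16 measured AMP-activated kinase relatives, the nearest branch to the TSSK family, with their activator Stk11, 10 were higher and 6 lower (median 0.036), and 0 passed (limma, 0 at an unadjusted p under 0.05). The median was 0.013 without WT replicate 2, with 8 higher and 8 lower, and 0.018 with all tested probe sets of each gene averaged. The smallest p among them belonged to Mark3 (0.13 ± 0.06), Mark2 (0.10 ± 0.06), Brsk1 (0.095 ± 0.062) and Nuak2 (−0.13 ± 0.08).

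Genes next to the TSSK loci did not pass the test. For each member the 5 nearest measured genes on either side were read, as chosen with the data in view. Over all genes 55.9% were higher in KO. Around Tssk4, 7 of 10 were higher in KO, with a median of 0.028 and a range from −0.15 to 0.16, and its own 0.19 lay above that range. Around Tssk5, 4 of 10 were higher (median −0.013), and the differences reached 0.21 at Tmem249, below the 0.27 of Tssk5. Around Tssk1 and Tssk2, 5 of 10 were higher for each, where each gene of the pair counts as a neighbour of the other and the sets overlap. Their differences reached 0.23, above the 0.065 of Tssk1 and the 0.057 of Tssk2. The counts were 3 of 10 for Tssk3 and 6 of 10 for Tssk6. Differences there reached 0.065, above the 0.061 of Tssk3, and 0.26, above the 0.0011 of Tssk6. At any locus 0 neighbours were called (limma adjusted p).

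The members differed in how they varied from array to array. Pearson correlations between their brightest probe sets over the 6 arrays, which share the normalization of each array, ran from −0.67 between Tssk2 and Tssk6 to 0.90 between Tssk3 and Tssk4. The tandem pair Tssk1 and Tssk2 had 0.72. With 6 arrays, high values are common, and from 119 to 640 of the other tested probe sets that name 1 gene exceeded 0.9 with a given member. The probe sets most like Tssk1 were those of Gm2a and Agfg2 (r = 0.98 each), and for Tssk2 those of Edc4 and Fam166a (r = 0.997 and 0.996). For Tssk3 they were Atxn7 and Mmp2 (r = 0.99 each), and for Tssk4 Ccdc81 (r = 0.998) and Got1l1 (0.99). For Tssk5 they were Rpl12 (r = 0.99) and Emb (0.98), and for Tssk6 Frmpd1 and Sertad4 (r = 0.99 each). These are descriptions over 6 arrays with no test.

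**Figure D4:**
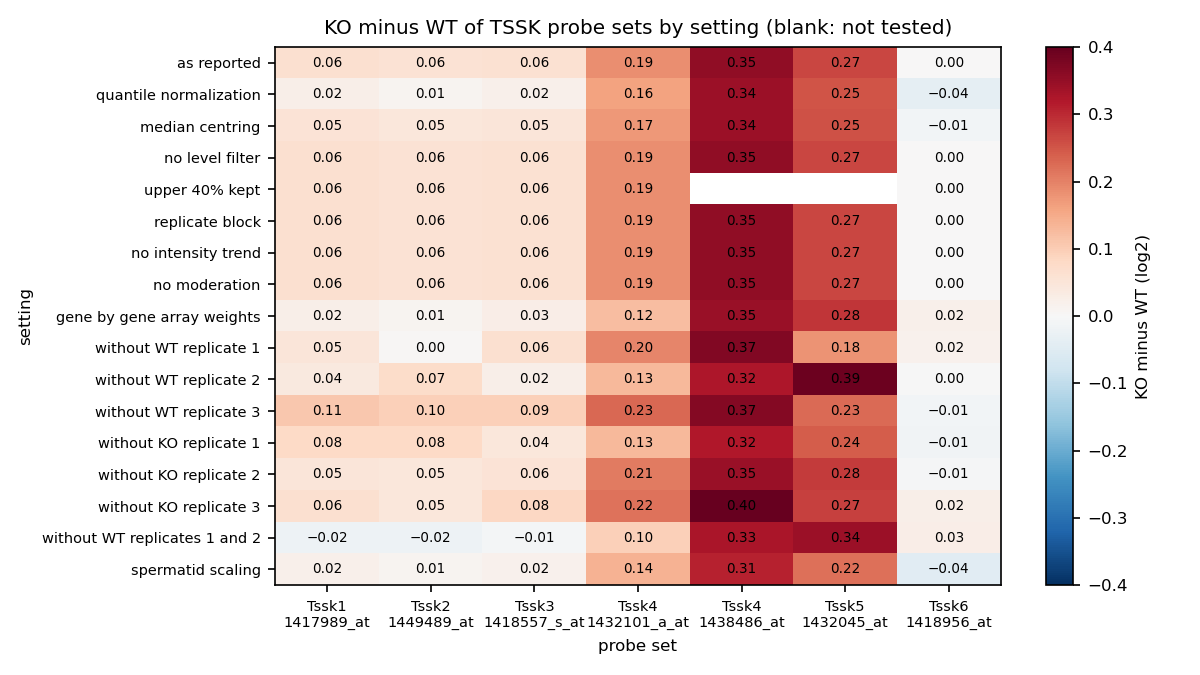
KO minus WT differences (log2, colour and number) of the 7 tested TSSK probe sets under the reported fit and under each alternative setting. Both Tssk4 probe sets and that of Tssk5 are above 0 in every setting that tested them, while Tssk1, Tssk2, Tssk3 and Tssk6 lie near 0 and change sign in some.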

How the data were processed

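Total RNA of whole testis was hybridised to 1 array per mouse. The authors deposited 1 table of normalized log2 values for 45101 probe sets, and the submitters' processing notes name GCOS 1.4. No source used here gives the background correction, probe summary or normalization. That the unit is log2 follows from the range of the values. Signal over background per probe set is not known, and the number of arrays limits the precision (median SE 0.082 log2).

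Groups came from the sample titles, which name biological replicates. Without the 64 control probe sets, the upper 60% by mean were kept (27022 of 45037). KO and WT were compared with limma 3.58.1 in R 4.3.3 (lmFit, eBayes with an intensity trend, two-sided, Benjamini-Hochberg over all kept probe sets), and the fit was tested on simulated data. Gene names came from the platform annotation, updated by gene id through RefSeq (GRCm38.p6). Lists used each gene's probe set of highest mean. Of the listed genes, Hsp90ab1, Hipk4, Nuak1, Insl3 and Lhcgr had no tested probe set of their own. The named genes were all members and partners, up to 4 genes with the smallest p per kinase list, the 2 largest differences per marker list, and the 2 most correlated probe sets per member; Acr and Tmem249 were named after their values were seen, as were Prm1, Prm2 and Odf1 as examples. The members and lists were chosen with earlier results of these data known. Alternatives covered normalization, level filter, replicate block, variance moderation, array weights and left-out arrays.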

Additional observations from a re-analysis of the deposited data

How the results depend on the processing

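In the 16 alternatives, 0 TSSK probe sets passed the test (limma adjusted p at its smallest from 0.137 with array weights to 1.00, rounded, without KO replicate 2), as did 0 genes of the partner and kinase lists where those were refitted. The differences of the Tssk4 probe sets ran from 0.096 to 0.23 and from 0.31 to 0.40, and that of Tssk5 from 0.18 to 0.39, without a change of sign. Tssk6 turned to −0.037 under quantile normalization, −0.010 under median centring and −0.044 under spermatid scaling, and ran from −0.015 to 0.024 with 1 array left out. With WT replicates 1 and 2 left out together, where the lone WT array is assumed to vary like the KO arrays, Tssk1, Tssk2 and Tssk3 stood at −0.020, −0.019 and −0.0070. The cause of these reversals was not tested. Over all probe sets, the 11 calls became 7 with the upper 40% kept, where fewer probe sets were tested, 0 with no moderation, 46 with array weights, 2 without WT replicates 1 and 2, and 2 to 12 with 1 array left out. With the replicate number as a replicate block, 9 were called, and 0 of the TSSK probe sets (smallest limma adjusted p = 0.659). Same-numbered arrays correlated at 0.22, −0.024 and 0.096 in their deviations from the group means. WT replicates 1 and 3 each correlated best with the KO array of the same number, and WT replicate 2 with KO replicate 3 (0.25). The titles name biological replicates without a pairing, so the numbers were not taken as pairs in the reported fit.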
